A study of Mus musculus with 14 samples.

Results

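The genes described here encode proteins that open, close or mark chromatin: the ATP-driven remodelers of the BAF, CHD and ISWI families, their partner subunits, the CoREST and histone deacetylase corepressors, Polycomb proteins, DNA methyltransferases, histone demethylases and HMG proteins. The list was written by gene name and held 45 genes, of 15977 genes with a probe of a single symbol on the array. A probe could be matched to 41 of them through the transcript identifiers in the array files or, for Chd7, Arid1a and 1 probe of Hmga2, through the probe names in the study's supplementary tables. No probe was matched to Chd3, Tet1, Kdm6b or Hmgb2. The 41 genes had 66 probes, of which 50 (38 genes) were above background on at least 3 arrays and were tested. Rest, Smarca2 and Suz12 were above background on no array. Of the 38 tested genes, 24 were above background on all 14 arrays, and none entered the test through a single group of samples.

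DNA is wound on histones, and these proteins decide which stretches of it a cell can read. In neural tissue the BAF remodeling complex is known to exchange subunits when a progenitor leaves the cell cycle: Actl6a, Phf10 and Ss18 are replaced by Actl6b, Dpf1 or Dpf3 and Ss18l1. CoREST is a corepressor that joins the demethylase Kdm1a to histone deacetylases and is brought to many neuronal genes by the repressor Rest. Polycomb complexes keep developmental genes silent through histone modification, and DNA methyltransferases copy or place methyl groups on CpG dinucleotides.

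Expression was measured in C57BL/6 mice in 4 groups: Notch1+ cells of the retina at embryonic day 14 (E14 Notch1+, n = 3 arrays), whole retinas of that stage (E14 Retina, n = 3), Notch1+ cells at postnatal day 0 (P0 Notch1+, n = 4) and whole retinas at postnatal day 0 (P0 Retina, n = 4). Retinas pooled from many eyes were dissociated with papain, and cells with Notch1 on their surface were taken out with a biotinylated antibody and magnetic beads. The whole retina still contains these cells, so it is a mixture and not a Notch1-negative fraction. RNA of each sample was amplified and hybridized alone to 1 array of 70-mer probes, and the study describes the samples as independent biological replicates.

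The label of the isolated cells was checked first. Notch1 itself was higher in Notch1+ cells at E14 (log2 difference 1.49 ± 0.33 SE, adjusted p = 0.0174) and at P0 (1.39 ± 0.29 SE, adjusted p = 0.00422), and its target Hes5 was higher too (2.34 ± 0.46 SE, adjusted p = 0.00878 and 2.85 ± 0.40 SE, adjusted p = 0.000289). These were the only genes called higher of a list of 14 retinal progenitor markers, in which Sfrp2 was called lower at E14 and Six6 at P0. The median log2 difference of that list was -0.59 at E14 and 0.13 at P0. Its summed intensity was 105212 to 112176 in E14 Notch1+ and 136047 to 154047 in E14 Retina, and 98745 to 133911 in P0 Notch1+ and 86556 to 95531 in P0 Retina. The number of probes above background per array was 9332 to 10648 in E14 Notch1+, 10609 to 11975 in E14 Retina, 9764 to 10718 in P0 Notch1+ and 11345 to 13547 in P0 Retina. The scanner files give 3 scan days: all E14 arrays share 1 day, the P0 Notch1+ arrays have 1 of their own and so do the P0 Retina arrays. The day of scanning cannot be told apart from the group at P0 or between the stages. The scanner files also carry a re-dip mark, whose meaning is not given in the sources used here. This dip mark was on 2 of 3 E14 Notch1+, 3 of 3 E14 Retina, 1 of 4 P0 Notch1+ and 4 of 4 P0 Retina arrays.

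Promoters are shown for the genes whose intensities separated Notch1+ cells from the whole retina at both stages and which have an entry in RefSeq's table (mouse build GRCm38.p6). Each runs 5′ to 3′ on the gene's own strand, from 250 bases before to 50 bases after the annotated start. Capitals mark the single match found in it to any of the motifs searched.
Rcor2, chr19:7267144-7267443 (+ strand), E-box: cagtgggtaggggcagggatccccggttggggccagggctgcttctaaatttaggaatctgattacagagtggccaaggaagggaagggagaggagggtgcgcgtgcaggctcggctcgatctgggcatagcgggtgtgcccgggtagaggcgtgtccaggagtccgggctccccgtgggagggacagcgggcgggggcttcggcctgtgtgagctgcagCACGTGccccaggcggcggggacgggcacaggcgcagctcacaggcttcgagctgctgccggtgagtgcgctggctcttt
Brd7, chr8:88362123-88362422 (- strand), E2F: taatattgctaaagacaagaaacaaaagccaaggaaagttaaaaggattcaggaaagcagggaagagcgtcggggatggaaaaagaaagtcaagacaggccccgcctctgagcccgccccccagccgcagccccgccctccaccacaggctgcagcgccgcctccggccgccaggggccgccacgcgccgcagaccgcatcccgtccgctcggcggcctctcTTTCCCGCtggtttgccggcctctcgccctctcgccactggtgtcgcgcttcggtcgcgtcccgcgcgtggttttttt
Smarcd3, chr5:24601953-24602252 (- strand), E-box: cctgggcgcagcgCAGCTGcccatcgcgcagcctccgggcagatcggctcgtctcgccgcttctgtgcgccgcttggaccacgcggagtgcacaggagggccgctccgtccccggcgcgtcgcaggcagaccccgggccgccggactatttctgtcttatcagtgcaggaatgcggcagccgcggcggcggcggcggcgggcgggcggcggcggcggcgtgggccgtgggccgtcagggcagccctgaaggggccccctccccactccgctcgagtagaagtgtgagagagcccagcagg
Actl6b, chr5:137553296-137553595 (+ strand), Sp1: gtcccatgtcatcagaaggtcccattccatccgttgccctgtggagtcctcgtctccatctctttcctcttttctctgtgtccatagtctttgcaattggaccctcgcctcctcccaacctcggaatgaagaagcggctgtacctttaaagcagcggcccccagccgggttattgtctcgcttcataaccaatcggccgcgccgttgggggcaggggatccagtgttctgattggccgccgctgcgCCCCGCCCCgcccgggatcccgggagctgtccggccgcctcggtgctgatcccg

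The motifs were searched on both strands: RBPJ (GTGGGAA), the factor through which Notch acts, E2F (TTTGGCGC or TTTCCCGC), the E-box (CAGCTG or CACGTG), Sp1 (GGGGCGGGG) and the left arm (TTCAGCACC) and the longer right arm of RE1, the Rest site. The E2F match in Brd7 lies 28 bases before the start, and 1.56% of 32851 promoter windows of this length hold such a match. E-boxes lie 30 bases before the Rcor2 start and 237 bases before the Smarcd3 start, and 22.2% of all windows hold one. The Sp1 match in Actl6b lies 4 bases before the start on the opposite strand, against 11.4% of all windows. Windows were found for 37 of the 45 genes. E2F matches were present in those of 6 genes (Brd7, Smarcd1, Arid1a, Ezh2, Suz12 and Dnmt1), Sp1 matches in 12 and E-boxes in 8. RBPJ letters occurred in none, against 6.38% of all windows, and neither did the left or the right arm of RE1, against 0.371% and 0.521%. The counts are of genes with a match in any of their windows, 49 in all, while the shares are per window. RE1 shares this small give few or no matches in 49 windows, so none found there is not read as a result. The RBPJ share also gives few matches in 49 windows. Whether these windows hold fewer RBPJ letters than others was not tested, and their absence is not read as a result either. The median number of CpG dinucleotides was 27 in the first window of each gene and 7 over all windows.

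**Figure D1:**
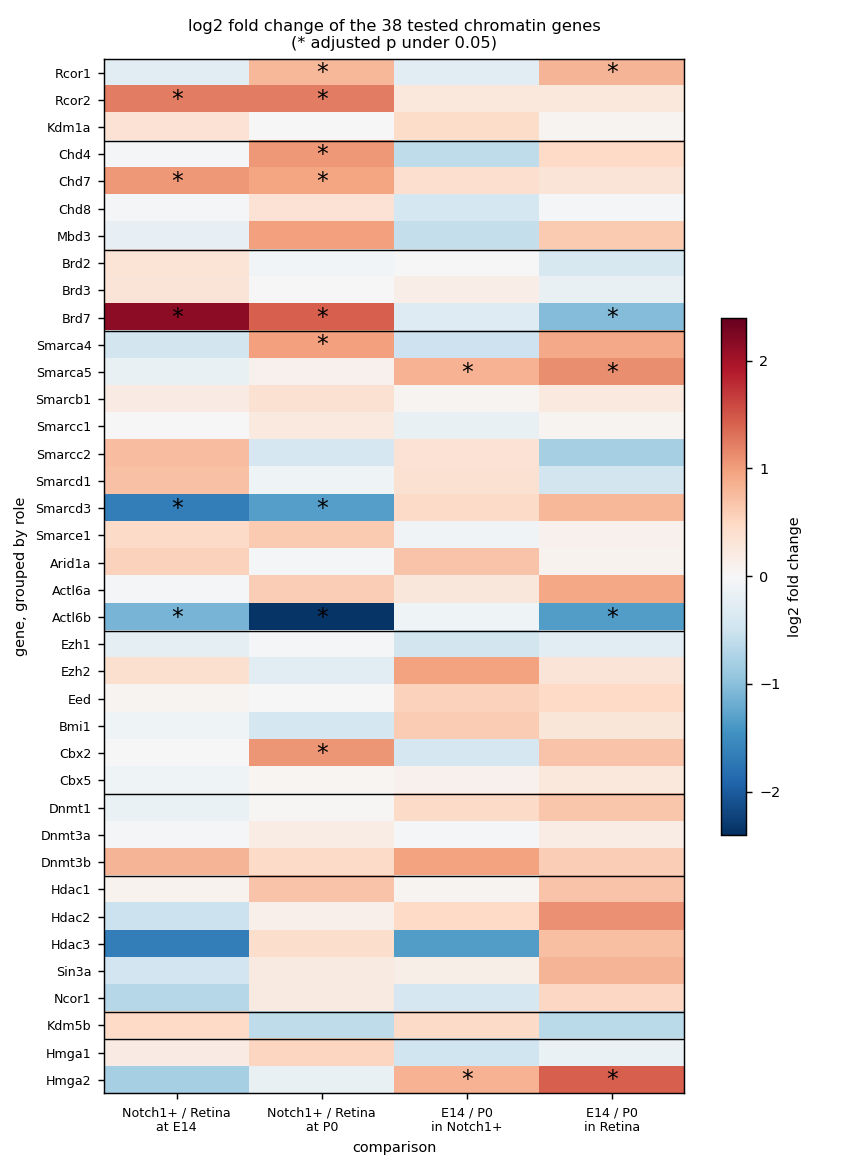
Log2 fold change (colour) of the 38 tested chromatin genes (rows, grouped by role) in 4 comparisons (columns), each by its brightest tested probe; red is higher in the first-named group and a star marks an adjusted p under 0.05. Stars stand on 11 genes, and Rcor2, Chd7, Brd7, Smarcd3 and Actl6b carry one in both comparisons of Notch1+ cells with whole retina.

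Most of these genes did not pass the test between Notch1+ cells and the retina they came from. A gene is represented by its brightest tested probe, intensities are in normalized scanner units, and a log2 difference of 1 is a factor of 2. At E14, 3 of the 38 genes were called higher in Notch1+ cells (Rcor2, Chd7 and Brd7) and 2 lower (Smarcd3 and Actl6b), where 2.38% of all 8832 genes tested were called higher and 3.68% lower. At P0, 7 were called higher (Rcor1, Rcor2, Chd4, Chd7, Brd7, Smarca4 and Cbx2) and 2 lower (the same pair as at E14), against 8.36% and 11.6% of all genes. The median log2 difference was -0.02 over the 38 genes at E14 and 0.20 at P0, and -0.01 over all genes at both stages. The groups did not overlap for 7 genes at E14 (18.4%, against 25.4% of all genes) and for 10 at P0 (26.3%, against 23.1%). The share of separated groups at P0 is thus near that of all genes.

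The higher calls at P0 depend on how the arrays are scaled. When each array was scaled to 1 median in place of quantile normalization, the median of all genes moved by -0.56 on the log2 scale. Of the 38 genes, 1 was then called higher and 6 lower, and of all 8832 genes 135 and 2744. With the authors' own value table the median moved by -0.37, and 2 genes were called higher (Rcor2 and Brd7) and 3 lower. Of all genes, it gave 351 higher and 1656 lower. Scaling to the 75th percentile also gave 2 higher, against 500 of all genes. Both percentiles are set over all probes, most of them not above background. Cyclic loess gave 6 higher and 3 lower, against 641 and 1048 of all genes. Scaling to the median of the probes above background on all arrays, added after the data were seen, gave 9 higher and 3 lower. Of all genes, it called 1794 higher and 906 lower. At E14 the same scaling to 1 median moved the median of all genes by -0.21, and the 3 genes called higher there kept their calls.

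**Figure D2:**
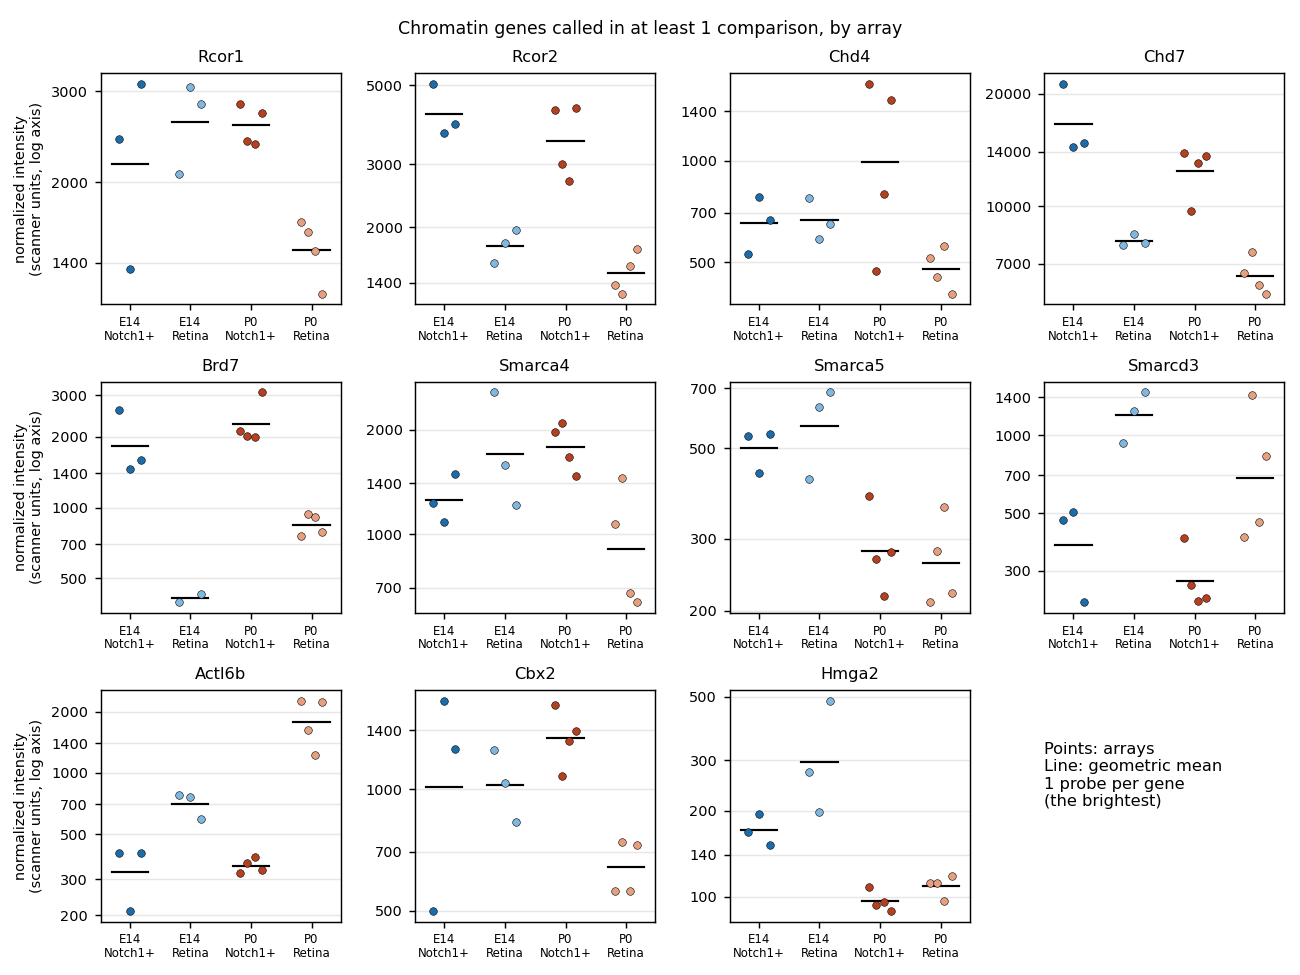
Normalized intensity (scanner units, log axis) of the 11 chromatin genes called in at least 1 comparison, by group; each point is 1 array and the line is the geometric mean of the group. Rcor2, Chd7 and Brd7 sit higher in both Notch1+ groups than in both Retina groups, while Smarcd3 and Actl6b sit lower in Notch1+ cells than in the retina of the same stage.

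Among the CoREST genes, Rcor2 was higher in Notch1+ cells at both stages. Rcor2 encodes a scaffold of the complex. Its intensity was 5048, 3666 and 3891 on the E14 Notch1+ arrays and 1588, 1807 and 1963 on those of E14 Retina. At P0 it was 4274, 3006, 2699 and 4313 in Notch1+ cells and 1377, 1302, 1564 and 1743 in Retina. Every Notch1+ array lay above every Retina array, across stages as well. On the log2 scale this was a difference of 1.23 ± 0.22 (SE, adjusted p = 0.00497) for E14 and 1.23 ± 0.19 (SE, adjusted p = 0.000523) for P0. Under scaling to 1 median the P0 value was 0.41 (adjusted p = 0.191), or 0.97 relative to the shift of all genes. The study names Rcor2, Chd7 and Brd7 itself, from these same arrays, so their differences are not independent of that choice. Among its putative network members it lists Rcor2 and Chd7 for E14 alone and Brd7 for both stages.

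Rcor1, the paralogous scaffold, was called against whole retina at P0 by the brighter of its 2 tested probes. The P0 Notch1+ arrays read 2836, 2408, 2371 and 2719, and the P0 Retina arrays 1679, 1602, 1473 and 1219. These groups did not overlap, and the log2 difference was 0.80 ± 0.23 (SE, adjusted p = 0.0254), which turned to -0.0071 (adjusted p = 0.987) under scaling to 1 median and was 0.55 relative to the shift of all genes there. At E14 the arrays of both groups lay between 1363 and 3099 and overlapped (log2 difference -0.27 ± 0.26 SE, adjusted p = 0.667). In whole retina Rcor1 was higher at E14 than at P0 (0.82 ± 0.25 SE, adjusted p = 0.0406). The call at P0 was lost without P0 Notch1+ replicate 1 or 4 or P0 Retina replicate 3 or 4, with adjusted p-values up to 0.0739. The retina call was lost without any one of 10 of the 14 arrays, among them all 4 of P0 Notch1+, all 4 of P0 Retina and E14 Retina replicates 2 and 3 (adjusted p up to 0.144). The difference at E14 was not shown to differ from that at P0 (difference of the differences -1.07 ± 0.35 SE, adjusted p = 0.126). The second probe, mMR026786, was called in no comparison. It gave 0.52 ± 0.27 (SE, adjusted p = 0.199) at P0, 0.34 ± 0.31 (SE, adjusted p = 0.633) at E14, where its sign was opposite to that of the brighter probe, and 0.39 ± 0.29 (SE, adjusted p = 0.403) between the stages in whole retina.

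Kdm1a, the demethylase of the complex, was not called in any comparison. E14 Notch1+ replicate 1 read 1031, and the other 13 arrays lay between 286 and 753. Its E14 difference was 0.35 ± 0.38 (SE, adjusted p = 0.703), and its P0 difference -0.02 ± 0.33 (SE, adjusted p = 0.98). Rest, the repressor that brings CoREST to its targets, stayed between 57.0 and 77.3 on every array, not above background.

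Chd7 was the CHD remodeler that separated Notch1+ cells from retina at both stages under quantile normalization. Loss of a gene copy in humans causes CHARGE syndrome, in which eye defects occur. The E14 Notch1+ arrays read 21286, 14439 and 14782, against 7879, 8395 and 7968 in E14 Retina. The P0 Notch1+ arrays read 13878, 9719, 13049.9 and 13639, against 6630.0, 7508, 6134 and 5809.6 in P0 Retina. Within each stage no Retina array reached the lowest Notch1+ array. In log2 units Chd7 differed by 1.04 ± 0.20 (SE, adjusted p = 0.00684) in the E14 samples. The P0 samples differed by 0.94 ± 0.17 (SE, adjusted p = 0.00172), which turned to -0.097 (adjusted p = 0.701) under scaling to 1 median, or 0.46 relative to the shift of all genes. The P0 call was also lost under scaling to the 75th percentile (0.22, adjusted p = 0.356) and with the authors' value table (0.28, adjusted p = 0.419). Between the stages, the groups did not overlap, with differences of 0.41 ± 0.18 (SE, adjusted p = 0.165) in Notch1+ cells and 0.32 ± 0.18 (SE, adjusted p = 0.281) in Retina that did not pass.

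Chd4, the ATPase of the NuRD complex, was called at P0 by 1 of its 3 tested probes. The P0 Notch1+ arrays read 1689, 469, 794 and 1512, so that replicates 1 and 4 stood high and replicate 2 lay inside the range of P0 Retina (515, 451, 557 and 402). The log2 difference was 1.05 ± 0.33 (SE, adjusted p = 0.0386). It was not called without P0 Notch1+ replicate 1 or 4, any one P0 Retina array or E14 Retina replicate 3, with adjusted p-values up to 0.115. At E14 the difference was -0.03 ± 0.38 (SE, adjusted p = 0.983). With the dip mark as a covariate the P0 difference was 0.34 (adjusted p = 0.588). Of the other probes, mMC010596 gave 0.53 ± 0.27 (SE, adjusted p = 0.196) and mMC022759 gave 0.02 ± 0.34 (SE, adjusted p = 0.981) in the P0 samples. Between the stages in Notch1+ cells, mMC022759 was called higher at E14 (1.62 ± 0.37 SE, adjusted p = 0.0146), with 566, 358 and 823 at E14 and 232, 180.4, 139 and 178 at P0. The brightest probe had the opposite sign there (-0.60 ± 0.36 SE, adjusted p = 0.298). Chd8, a related remodeler, and Mbd3, the methyl-CpG-binding-domain subunit of NuRD, were not called. Mbd3 varied widely within the groups, with 4859, 7527, 4023 and 10469.8 in P0 Notch1+ and 2134, 1312, 7399 and 4732 in P0 Retina (log2 difference 0.99 ± 0.53 SE, adjusted p = 0.214). Chd8 lay between 277 and 637 on all arrays.

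Of the bromodomain genes, which bind acetylated histones, Brd7 had the largest difference of the 38 genes at E14, and it was carried by a single probe. Brd7 is a subunit of the PBAF form of the BAF complex. Probe mMC018414 read 2610.3, 1461 and 1596 in E14 Notch1+ and 395 and 429.6 on 2 E14 Retina arrays. The spot was marked bad on E14 Retina replicate 1, and the fit left that array out for this probe. At P0 the Notch1+ arrays read 2126, 2020.5, 2003 and 3091 and the Retina arrays 759, 939.7, 909.7 and 784. All 7 Notch1+ arrays lay above all Retina arrays with a value. The difference in log2 units was 2.15 ± 0.27 (SE, adjusted p = 0.000709) for the E14 arrays and 1.43 ± 0.21 (SE, adjusted p = 0.000476) for the P0 arrays. In whole retina the level was lower at E14 than at P0 (-1.04 ± 0.25 SE, adjusted p = 0.0174), a call that was lost without E14 Retina replicate 2 or 3 (adjusted p up to 0.1004).

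The other Brd7 probes did not show this pattern. Probe mMR027873, above background on all 14 arrays, read 1512, 396 and 792 in E14 Notch1+ and 752, 835 and 942 in E14 Retina. It differed by -0.11 ± 0.38 (SE, adjusted p = 0.928) between the E14 groups and by 0.30 ± 0.33 (SE, adjusted p = 0.572) between the P0 groups. In whole retina it had the opposite sign to mMC018414 between the stages (1.02 ± 0.36 SE, adjusted p = 0.0767). Probe mMA031564 was dim and gave -0.06 ± 0.15 (SE, adjusted p = 0.883) and 0.07 ± 0.13 (SE, adjusted p = 0.764) for Notch1+ cells against Retina. Taking the median over the 3 probes, the difference of Brd7 was -0.062 at E14 and 0.30 at P0. Brd2 and Brd3, readers of the BET family, were not called. Brd2 varied between 2036 and 7509 within P0 Notch1+ alone.

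**Figure D3:**
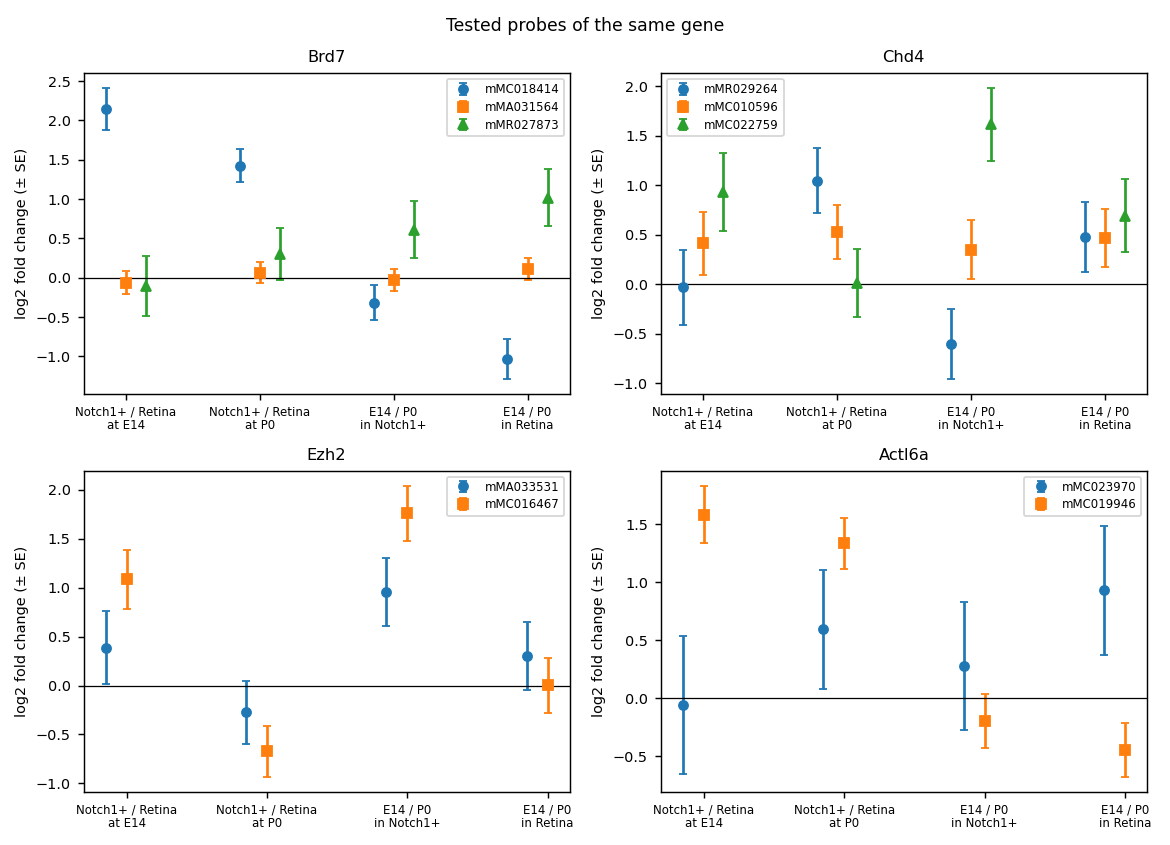
Log2 fold change with its standard error in 4 comparisons for each tested probe of Brd7, Chd4, Ezh2 and Actl6a, with 1 symbol and colour per probe. For Brd7 only mMC018414 stands away from 0 in the first pair of comparisons (2.15 and 1.43), and for Actl6a only mMC019946 does (1.59 and 1.34).

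The BAF subunits Actl6b, of the neuron type, and Smarcd3 were lower in the Notch1+ samples of either stage than in the matching retina. Actl6b is the actin-related subunit found in neurons. Its intensity was 402, 209 and 406 in E14 Notch1+ and 776, 759 and 592 in E14 Retina. At P0 it was 322, 360.4, 384 and 333 in Notch1+ cells and 2259, 1631, 1220.4 and 2239 in Retina. No Notch1+ array reached any Retina array, and P0 Retina stood above all other groups. At E14 the log2 difference was -1.12 ± 0.28 (SE, adjusted p = 0.0315). The P0 difference, -2.35 ± 0.24 (SE, adjusted p = 3.08e-05), was the largest of the 38 genes there. The E14 call was lost without E14 Notch1+ replicate 2 or any one E14 Retina array, with adjusted p-values up to 0.108, and with the dip mark as a covariate (-0.96, adjusted p = 0.0649). A second probe, mMA031849, was above background only in P0 Retina (3 of 4 arrays), where it was at least 1.19-fold brighter than in P0 Notch1+; a bound of this kind sets the dim group at the lowest signal above background on its arrays. This probe entered the test only through the group in which it is high, so its difference adds no support to that of the brighter probe. In whole retina Actl6b was lower at E14 than at P0 (-1.34 ± 0.26 SE, adjusted p = 0.00438), while in Notch1+ cells the stages overlapped (-0.11 ± 0.26 SE, adjusted p = 0.837). The difference between the stages in the Notch1+ effect did not pass the test (1.23 ± 0.37 SE, adjusted p = 0.0967).

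Smarcd3, a subunit known from heart and not part of the exchange described above, read 472, 508 and 226 in E14 Notch1+. In E14 Retina it read 934, 1237 and 1465. At P0 it read 400.1, 264, 228 and 236 in Notch1+ cells and 405, 1432, 461 and 830.5 in Retina. The groups did not overlap at either stage, though at P0 the highest Notch1+ array lay just below the lowest Retina array. Smarcd3 differed by -1.66 ± 0.44 (SE, adjusted p = 0.0408) among E14 arrays and by -1.32 ± 0.38 (SE, adjusted p = 0.0257) among P0 arrays. Both calls were close to the threshold. The E14 call was lost without any one of the 6 E14 arrays, P0 Notch1+ replicate 2, 3 or 4 or P0 Retina replicate 4 (adjusted p up to 0.141). The P0 call was lost without P0 Notch1+ replicate 2, 3 or 4 or P0 Retina replicate 2 or 4 (adjusted p up to 0.0675), or with the dip mark as a covariate (-1.58, adjusted p = 0.0782).

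Markers of ganglion cells and young neurons moved the same way. Of 13 tested markers of 16 listed, 8 were called lower in Notch1+ cells at E14 and 10 at P0, none higher. Of all genes, 3.68% were called lower at E14 and 11.6% at P0. The marker counts include Nefm and Pou4f2 at both stages and Thy1 at P0. These probes entered the test through Retina arrays alone, so their calls are not read as support. Pou4f2 was above background on no P0 array. The summed intensity of the list was 20235 to 22414 on the E14 Notch1+ arrays and 51020 to 54729 in E14 Retina. At P0 it was 11338 to 15046 in Notch1+ cells and 21669 to 32654 in Retina. Gap43, Isl1, Map2, Nefl, Nefm, Pou4f1, Pou4f2, Sncg and Thy1 were above background on no P0 Notch1+ array. Rod and photoreceptor markers summed to 2559 to 4214 in P0 Notch1+ and 4679 to 12640 in P0 Retina. Of 7 tested, 5 were called lower in P0 Notch1+ cells. Among these, Rcvrn and Pde6b were above background on P0 Retina arrays alone and entered the test only through that group. Their calls are not read as support. Lens markers were above background on no E14 Notch1+ array. They summed to 576 to 623 there, against 901 to 4784 in E14 Retina, and 2 of 5 tested were called lower. Those 2, Cryga and Crygb, were above background on Retina arrays alone, so these calls are not read as support either. At P0 no lens marker was called, with sums of 550.4 to 1890.0 and 910.2 to 1737. Pigment epithelium markers summed to 550.3 to 586 in E14 Notch1+ and 708 to 799 in E14 Retina, with none of 4 tested called. At P0 they summed to 667 to 1074 and 987 to 1414, with 2 called lower (Dct and Mitf). Mitf was above background on Retina arrays alone, so its call is not read as support. Rpe65 and Tyr were above background on no array of any group. The part of any of these lists in the Actl6b and Smarcd3 values was not tested, and in these bulk samples fewer cells of a type and less RNA per cell cannot be told apart.

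The other neuron-type subunits were mixed. The list written for neuron-type subunits held Actl6b, Smarcd3, Dpf1, Dpf3 and Ss18l1, of which 4 were tested. Its median log2 difference was -1.07 at E14 and -0.77 at P0. Smarcd3 is not part of the exchange described above, so these medians are not those of neuron-type subunits alone. Dpf1 was called at P0 with the opposite sign, its Notch1+ arrays reading 219, 275, 279 and 259 against 154, 193, 182 and 158 in Retina (log2 difference 0.59 ± 0.14 SE, adjusted p = 0.00829). Ss18l1 had the sign of Actl6b and was not called at E14 (-1.03 ± 0.41 SE, adjusted p = 0.181) or P0 (-0.22 ± 0.35 SE, adjusted p = 0.712), and Dpf3 was above background on 1 array. The counterparts of progenitors, Actl6a, Phf10, Dpf2 and Ss18, were called in none of the 4 comparisons by their brightest probes. Phf10, for example, gave -0.13 ± 0.18 (SE, adjusted p = 0.774) for E14 and -0.36 ± 0.15 (SE, adjusted p = 0.118) for P0.

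**Figure D4:**
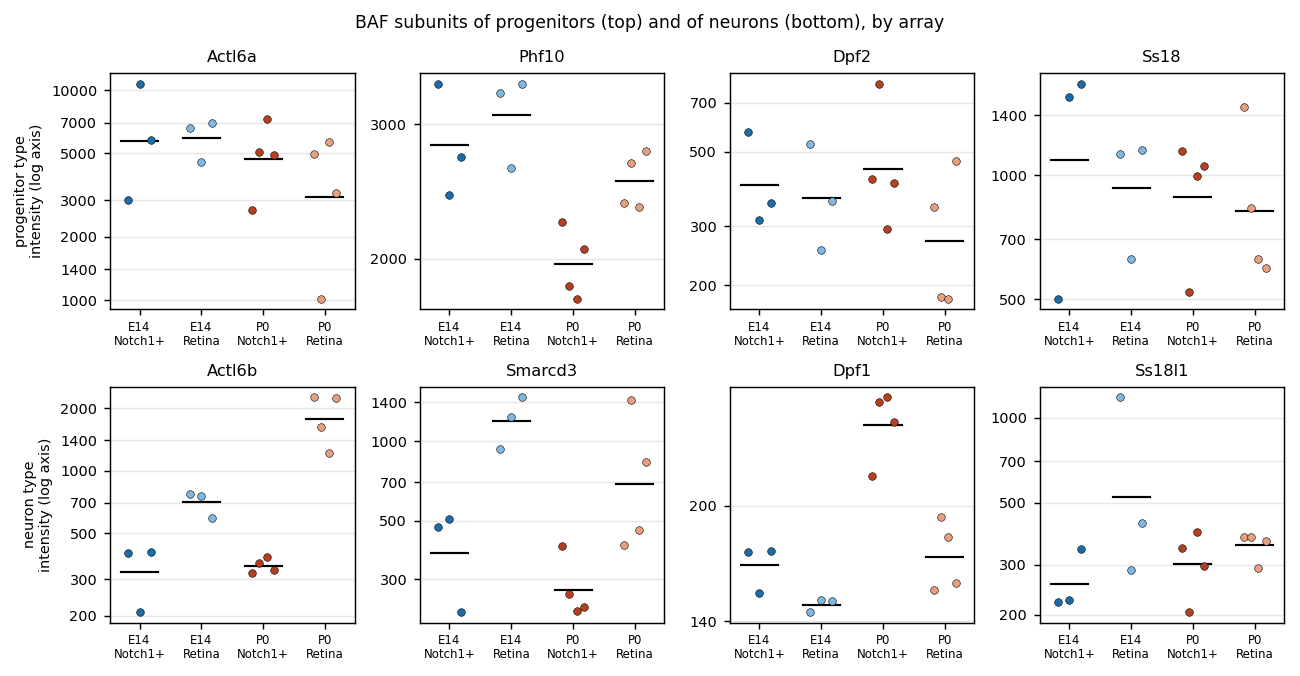
Normalized intensity (scanner units, log axis) of BAF subunits listed as progenitor type (top) and as neuron type (bottom), by group. Points are arrays and lines are geometric means. Smarcd3, in the bottom row, is not part of the subunit exchange described in the text. Actl6b and Smarcd3 sit lower in Notch1+ cells at both stages, Dpf1 sits higher in P0 Notch1+ than in P0 Retina, and the top row shows overlapping groups for Actl6a, Dpf2 and Ss18.

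Actl6a depended on the probe. Its brighter probe, mMC023970, varied from 1018 to 10725 over the arrays and gave -0.06 ± 0.59 (SE, adjusted p = 0.978) for the E14 groups and 0.60 ± 0.51 (SE, adjusted p = 0.457) for the P0 groups. The second probe, mMC019946, read 457, 665 and 328 in E14 Notch1+ and 211, 130.4 and 134 in E14 Retina. At P0 it read 538, 593, 501 and 494 in Notch1+ cells and 225, 229, 208 and 181 in Retina. These groups did not overlap at either stage, and the differences passed (E14, 1.59 ± 0.25 SE, adjusted p = 0.00234; P0, 1.34 ± 0.22 SE, adjusted p = 0.000783).

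Of the ATPases, Smarca4 was called between Notch1+ cells and retina at P0 and Smarca5 between the stages. Smarca4 is the motor of the BAF complex. It read 1964, 2093, 1666 and 1469 in P0 Notch1+ and 1069.7, 1452, 676 and 634.6 in P0 Retina, and the lowest Notch1+ array lay just above the highest Retina array. Its P0 difference was 0.98 ± 0.28 (SE, adjusted p = 0.026) in log2 units, and its E14 groups overlapped (-0.44 ± 0.33 SE, adjusted p = 0.533). The P0 call was lost without P0 Notch1+ replicate 1 or 2 or P0 Retina replicate 3 or 4 (adjusted p up to 0.0798). It was 0.21 (adjusted p = 0.648) under scaling to 1 median, or 0.77 relative to the shift of all genes, and 1.21 (adjusted p = 0.0661) with the dip mark as a covariate. Smarca2, the alternative motor, was above background on no array.

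Smarca5, the motor of the ISWI remodelers, fell from E14 to P0, in isolated cells and in whole retina alike. It read 535, 435 and 542 in E14 Notch1+ and 383, 267, 217 and 279 in P0 Notch1+. In whole retina it read 420.3, 631 and 684 at E14 and 209, 279.7, 359 and 221 at P0. All E14 arrays lay above all P0 arrays. The stages differed by 0.84 ± 0.25 (SE, adjusted p = 0.0439) in Notch1+ cells and by 1.12 ± 0.25 (SE, adjusted p = 0.00857) in Retina, and Notch1+ cells were not called against Retina at E14 (-0.18 ± 0.26 SE, adjusted p = 0.801) or P0 (0.10 ± 0.23 SE, adjusted p = 0.791). The call in Notch1+ cells was lost with the dip mark as a covariate (0.80, adjusted p = 0.0999) and without any one of 9 arrays: the 3 of E14 Notch1+, replicates 2, 3 and 4 of P0 Notch1+, E14 Retina replicate 2 and P0 Retina replicates 2 and 4 (adjusted p up to 0.118).

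The common subunits of the complex were not called in any comparison. Smarcb1, a core subunit, lay between 4663 and 8363 over all arrays, and its P0 groups did not overlap (0.36 ± 0.14 SE, adjusted p = 0.0956). Smarcc1, Smarcc2, Smarcd1, Smarce1 and Arid1a, which build or target the complex, gave log2 differences from 0.00 to 0.75 at E14 and from -0.40 to 0.64 at P0. Smarcc2 had 1 array apart, E14 Notch1+ replicate 1 at 1893, with the other 13 between 339 and 1382.

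Of the Polycomb and heterochromatin genes, Cbx2 was called at P0. Cbx2 is a subunit of the first Polycomb complex that reads methylated histone. The P0 Notch1+ arrays read 1620.1, 1082, 1321 and 1394, and the P0 Retina arrays 560.3, 740.3, 559 and 729, with no overlap. This was a log2 difference of 1.06 ± 0.30 (SE, adjusted p = 0.0243), against -0.02 ± 0.35 (SE, adjusted p = 0.988) for E14. The call was lost without P0 Notch1+ replicate 1 or 4 or P0 Retina replicate 1 or 3 (adjusted p up to 0.0657), and the value was 0.34 (adjusted p = 0.493) under scaling to 1 median, or 0.90 relative to the shift of all genes. With the dip mark as a covariate the value was 0.53 (adjusted p = 0.394). Bmi1, another subunit of that complex, gave -0.43 ± 0.25 (SE, adjusted p = 0.26) at P0. Cbx5, a heterochromatin protein, was dim and gave 0.04 ± 0.18 (SE, adjusted p = 0.896).

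The second Polycomb complex was represented by its methyltransferases Ezh1 and Ezh2 and its subunit Eed, none of them called by its brightest probe. Ezh2 read 1492, 1235 and 1561 in E14 Notch1+ and 977, 381, 749.6 and 1019.6 in P0 Notch1+, without overlap, and this difference did not pass (0.96 ± 0.35 SE, adjusted p = 0.0923). Its second probe, mMC016467, read 450.5, 1109.8 and 473 and 216, 146, 186 and 188 in the same groups and passed (1.76 ± 0.28 SE, adjusted p = 0.00203). In whole retina that probe gave 0.00 ± 0.28 (SE, adjusted p = 0.998), with 267, 371 and 249 at E14 and 280.0, 260.4, 283 and 345 at P0. Between Notch1+ cells and Retina it differed by 1.09 ± 0.30 (SE, adjusted p = 0.0503) in E14 samples and by -0.67 ± 0.26 (SE, adjusted p = 0.088) in P0 samples, and these differed from each other (1.76 ± 0.40 SE, adjusted p = 0.0372); it was the only probe of the 50 for which that test passed, against 2.47% of all probes. The brighter Ezh2 probe gave 0.66 ± 0.49 (SE, adjusted p = 0.529) in the same test. Ezh1 lay between 109 and 219 on all arrays and did not clear the background in E14 Notch1+.

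No DNA methyltransferase was called in any comparison. Dnmt1, which copies methylation after replication, read 1095, 2636 and 674 in E14 Notch1+ and 2406, 1022 and 1114 in E14 Retina. Each of these groups held 1 array above 2000, and the P0 arrays lay between 642 and 1224. Dnmt1 differed by -0.16 ± 0.44 (SE, adjusted p = 0.899) between the E14 groups and by 0.03 ± 0.38 (SE, adjusted p = 0.964) between those of P0. Dnmt3b, which places new methylation, read 901, 189.8 and 159.5 in E14 Notch1+, so that a single array stood apart, and was above background on no P0 Retina array. Its log2 difference was 0.82 ± 0.46 (SE, adjusted p = 0.372) at E14. Dnmt3a, the other enzyme of that kind, was dim, between 124 and 182, with -0.02 ± 0.17 (SE, adjusted p = 0.971) for E14 and 0.18 ± 0.15 (SE, adjusted p = 0.434) for P0.

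The histone deacetylases Hdac1, Hdac2 and Hdac3 and the corepressor scaffolds Sin3a and Ncor1 were not called in any comparison. All 5 had a value above 0 for E14 against P0 in whole retina, from 0.50 to 1.10, with Hdac2 nearest to the threshold (1.10 ± 0.36 SE, adjusted p = 0.0583). Hdac2 read 9159.6, 5505 and 11358 at E14 and 3766, 5114, 3660.5 and 3206 at P0, and these groups did not overlap. Hdac3 gave -1.65 ± 0.69 (SE, adjusted p = 0.203) for Notch1+ cells at E14, where replicate 1 read 131 and the other arrays of that group 1447 and 731. Kdm5b, a demethylase of active histone marks, gave 0.49 ± 0.26 (SE, adjusted p = 0.334) at E14, without overlap, and -0.62 ± 0.22 (SE, adjusted p = 0.0659) at P0. The test of the difference between these did not pass (1.11 ± 0.34 SE, adjusted p = 0.102).

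Of the HMG proteins, which bend DNA, Hmga2 was above background at E14 alone, and Hmga1 was not called. Hmga2 is known from stem and progenitor cells of early stages. It read 272, 198 and 484 in E14 Retina and 112, 112, 96.8 and 118 in P0 Retina, where no array was above background. In Notch1+ cells it read 169, 194 and 152 at E14, with 2 of 3 arrays above background, and 108, 93.5, 95.6 and 89.1 at P0, with none. E14 was therefore at least 2.28-fold higher in Retina (adjusted p = 0.00153) and at least 1.19-fold higher in Notch1+ cells (adjusted p = 0.0418). The call in Notch1+ cells was lost without any one of 11 of the 14 arrays (all 7 Notch1+ arrays, E14 Retina replicate 1 and P0 Retina replicates 1, 2 and 4; adjusted p up to 0.134). The probe entered the test only through E14 arrays (5 above background, against none at P0), so it had to differ between the stages and these p-values are not read as support. The 3 other probes of Hmga2 were above background on no array. Hmga1 read 6745, 4157 and 7919 in E14 Notch1+ and 8940.0, 8183, 8767 and 7980.1 in P0 Notch1+, without overlap (-0.48 ± 0.28 SE, adjusted p = 0.297).

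Between the stages the calls among these genes were few. In Notch1+ cells 2 of the 38 were called higher at E14 (Smarca5 and Hmga2) and none lower, against 5.47% and 6.83% of all genes in the limma fit. Of the 38, 8 had an unadjusted p under 0.05 in the limma fit, a threshold at which the share of all genes was not computed. The methods' t-test without adjustment called 2 lower. In whole retina 3 were higher at E14 (Rcor1, Smarca5 and Hmga2) and 2 lower (Brd7 and Actl6b), against 7.39% and 8.32%. Both counts higher at E14 include Hmga2, which entered the test through E14 arrays alone, and are 1 and 2 without it. The median log2 difference was 0.12 in Notch1+ cells and 0.30 in Retina, against 0.01 and -0.01 over all genes. Groups did not overlap for 5 genes in Notch1+ cells (13.2%, against 24.6% of all genes) and for 13 in Retina (34.2%, against 29.6%). The difference between Notch1+ cells and Retina was not shown to depend on the stage for any of the 38. The test called 0 of them, against 1.73% of all genes called higher and 1.06% lower. An unadjusted p under 0.05 was found for 7, and the share of all genes at that threshold was not computed. With each array scaled to 1 median, 3 genes were called higher in that test, against 407 of all 8832 genes.

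Probes of the same gene often did not move together. For the 10 genes with several tested probes, all probes of a gene had the same sign for 5 genes at E14 and 9 at P0 in the comparison of Notch1+ cells with Retina, and for 5 genes in each comparison between the stages. Their calls were the same for 7 genes at E14 and 6 at P0. Which transcripts each 70-mer measures was not tested.

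A wider list of chromatin genes gives the background to these calls. It held 139 further subunits, readers and modifying enzymes of the same complexes, of which 106 were tested. In Notch1+ cells against Retina, 4 were called higher and 3 lower at E14, against 2.38% and 3.68% of all genes. At P0, 12 were higher and 4 lower, against 8.36% and 11.6%. Higher and lower together, 6.6% of the list was called at E14 and 15.1% at P0. The genes named below are single calls and are not read as a trait of the list. Bcl11a, a zinc-finger factor that joins the BAF complex, was lower in Notch1+ cells at both stages (E14, -1.28 ± 0.28 SE, adjusted p = 0.0154; P0, -1.47 ± 0.24 SE, adjusted p = 0.000883). It read 778, 674 and 748 in E14 Notch1+ against 2109, 1395 and 1927 in E14 Retina. Pbrm1, the subunit that with Brd7 marks the PBAF form, was higher at E14 (1.25 ± 0.32 SE, adjusted p = 0.0349) and gave 0.52 ± 0.28 (SE, adjusted p = 0.214) at P0. Brpf1, a bromodomain scaffold of histone acetyltransferases, was higher at P0 (1.65 ± 0.24 SE, adjusted p = 0.000362). In the CoREST list Gse1 (1.36 ± 0.39 SE, adjusted p = 0.0238) and Hmg20b (1.04 ± 0.31 SE, adjusted p = 0.0318) were higher at P0. Uhrf1, which guides Dnmt1 to replicated DNA, was lower in Notch1+ cells at E14 (-1.72 ± 0.40 SE, adjusted p = 0.0208). Between the stages in Notch1+ cells, 3 of the 106 were higher at E14 and 6 lower (8.49% together), against 5.47% and 6.83% of all genes. In Retina, 8 were higher and 7 lower (14.2% together), against 7.39% and 8.32%. Baz1a, a partner of Smarca5, was higher at E14 in both (1.44 ± 0.21 SE, adjusted p = 0.000953 in Notch1+ cells and 1.43 ± 0.21 SE, adjusted p = 0.000539 in Retina).

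Cell cycle and vessel genes moved with the P0 groups in which most calls fell. Of 22 S phase and mitosis genes, 5 were called higher in P0 Notch1+ than in P0 Retina and none lower, and the list summed to 38084 to 44238 in P0 Notch1+ and 23623 to 31439 in P0 Retina. At E14 the sums were 39707 to 45066 and 37711 to 43183, and 1 gene was called higher. Endothelial markers, from cells that also carry Notch1, summed to 3420 to 6110 in P0 Notch1+ and 1968 to 2465 in P0 Retina. Of 7 tested, 3 were called higher (Pecam1, Cldn5 and Tie1), and Tek was above background on no array of either group. Tie1 entered the test through P0 Notch1+ arrays alone, so its call is not read as support. At E14 the endothelial markers summed to 1424 to 3493 in Notch1+ cells and 1189 to 1356 in Retina, with none of 7 called. Of all genes, 8.36% were called higher at P0 and 2.38% at E14. The part of either in the values of Rcor1, Rcor2, Chd4, Chd7, Brd7, Smarca4 and Cbx2 was not tested.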

How the data were processed

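Each of 14 RNA samples was hybridized to 1 MEEBO array of 70-mer probes, with a single dye. The scanner files that the authors deposited (GenePix Pro 4.1.1.4, per the file headers) hold the foreground and background intensity of 38880 spots, not normalized, of which 34312 are mouse probes. The authors also deposited a value table in log2. Set against the scanner values, it holds the background-subtracted intensity times a factor for each array (0.613 to 1.41), and how the factor was chosen is not given in the sources used here. Columns of the authors' own comparisons were not used. Probes were named through transcript accessions in RefSeq (22987 probes), gene IDs in the study's supplementary tables (443) or symbols there (47), and 10835 had no name.

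Spots marked bad were left out. Intensities were corrected with normexp (offset 50), quantile-normalized and taken to log2 in limma 3.58.1 (R 4.3.3, statmod 1.5.0). A spot cleared the background where its foreground lay more than 2 background SDs over it. Probes that did so on 3 arrays or more entered the test, 13683 in all. The 4 group means were fitted together with lmFit and eBayes, Benjamini-Hochberg adjustment ran over these 13683 probes, and a gene was called at an adjusted p under 0.05. A gene was represented by its brightest tested probe. Genes described with all their values were those called in any comparison, beside members of each role. The script was tested on simulated data.

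The chromatin genes, the wider list and the marker lists were chosen with earlier results of these data known, so none is independent support. The values of 1 gene of the wider list are not reported here, though the counts include it. The arrays of 2 samples shared at most 4.65% of identical foreground values, and no sample was counted as a duplicate. Depth is not defined for arrays, whose number limits the precision. Alternatives were other background corrections, scalings, filters, tests, probes and sample sets. Others were the dip mark (10 of 14 arrays) as a covariate, the replicate number as a block, and leaving out each array in turn.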

Additional observations from a re-analysis of the deposited data

Results flagged for a closer look

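Among the 22 groups of 4 arrays examined for the 11 called genes, 1 held an array apart from the rest. For Brd7 (probe mMC018414), P0 Notch1+ replicate 4 read 3091 and the nearest other array 2126, a gap of 0.862 of the range of the group. Chance sets about 1 in 20 such groups apart. Leaving that array out kept the P0 call of Brd7, whose adjusted p was at most 0.00219 when any one array was left out.

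For the dimmer Ezh2 probe, mMC016467, the effect of isolating Notch1+ cells was not the same at the 2 stages, with a gap of 1.76 on the log2 scale (limma interaction, adjusted p = 0.0372). It was 1.09 at E14 and -0.67 at P0, with no overlap of the groups at either stage, and neither passed alone. The brighter Ezh2 probe, mMA033531, gave 0.66 (adjusted p = 0.529).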

How the results depend on the processing

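Over all alternatives and left-out arrays, the 21 log2 differences named as called were counted as kept in 492 refits. That count includes the median over probes, which has no test. There a difference was counted as kept where its value stayed within the largest within-group SD. For a gene with 1 tested probe, that setting and the choice of the study's probe repeat the main value, so agreement was fixed in advance. In 132 refits the differences fell short of the threshold. In 2 they moved without a test (the median over probes, for Brd7 and Actl6b at P0), and in 4 they turned in direction. Those were Rcor1 (-0.0071) and Chd7 (-0.097) at P0, both under scaling to 1 median. The others were Brd7 with the median over its probes, at E14 (-0.062) and in Retina between the stages (0.11). The cause was not tested for Rcor1 and Chd7. The values of the last pair are those of mMA031564, the middle of the 3 Brd7 probes, which was above background on 6 arrays.

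Counts of the 38 genes moved as follows. Scaling to 1 median gave 1 higher and 6 lower in Notch1+ cells at P0, against 135 and 2744 of all 8832 genes. It gave 9 higher at E14 among Notch1+ cells, against 1112, and 3 higher in the test of stage dependence, against 407. Scaling to the 75th percentile gave 2 higher at P0, against 500 of all genes. These percentiles are set over all probes, most of them not above background. Scalings over the probes above background on all arrays were added after the data were seen. With the 75th percentile 11 were higher at P0, against 2269 of all genes. For E14 against P0 in Notch1+ cells, these scalings gave 1 higher with the median, 0 with the 75th percentile, and 1 lower with either. Of all genes, the median gave 294 higher and 853 lower there, and the 75th percentile 250 and 1118. The authors' value table gave 2 higher at P0 and 4 higher at E14 among Notch1+ cells, against 351 and 858 of all genes. In the latter comparison cyclic loess gave 0, and plain subtraction and the groups compared alone gave 1 each. Of all genes, cyclic loess gave 349 higher there and plain subtraction 475. For genes lower at E14 in Notch1+ cells, no filter on dim probes gave 1, and the groups compared alone gave 0. The dip mark as covariate left 4 higher and 1 lower for P0, 1 lower for E14 and 1 higher between the stages in Notch1+ cells. The methods' t-test without adjustment called 2 lower in Notch1+ cells and 10 higher in Retina between the stages. After Benjamini-Hochberg it called 0 higher and 0 lower at E14, 1 lower at P0, 1 higher in Notch1+ cells between the stages, and 0 higher and 1 lower in Retina. The share of all genes was not computed for the groups compared alone, no filter, the dip mark or the t-tests. Nor was it for the left-out arrays and the replicate block below, so these counts are not read as results about the list.

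With each array left out in turn, the counts higher and lower ranged from 3 to 3 and 0 to 2 at E14, 3 to 8 and 1 to 3 at P0, 0 to 2 and 0 to 1 in Notch1+ cells between the stages, 2 to 6 and 1 to 3 in Retina, and 0 to 1 for either sign of stage dependence.

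Replicate numbers did not pair the samples, whose same-number correlations lay between -0.056 and 0.084. With the number as a replicate block, 0 genes were called lower at E14, 0 higher in Notch1+ cells between the stages and 1 lower in Retina, and the other counts stayed within 1.5 times. No t-test and no fit of the compared groups alone could be made for stage dependence, and the median over probes has no test. Arrays of 3 or 4 per group recover small differences incompletely, and dim probes such as those of Dnmt3a and Cbx5 understate them.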
